A study of Saccharomyces cerevisiae with 8 samples.

Results

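The comparison described here sets the yeast strain in which RPL12A was put back on a plasmid against wild type yeast, and asks what still differs between them once the gene is expressed again. Its members are the arrays whose titles name that strain or the wild type, which makes 4 of the 8 arrays in the series, 2 per group. The plus RPL12A strain is 6EA1, a W303 derivative that lacks both RPL12A (YEL054C, chromosome V) and RPL12B (YDR418W, chromosome IV), carrying RPL12A on a high copy plasmid. The wild type is W303 itself. The remaining arrays, 2 of 6EA1 without a plasmid (double deletion) and 2 of 6EA1 with RPL12B on a high copy plasmid (plus RPL12B), give the context. All cultures grew at 30 °C in synthetic medium with 2% glucose to early log phase, an A600 of 0.5 to 0.6. The labels name neither the selection marker of the plasmid, nor the promoter of its RPL12A, nor which supplements each strain was given, and no strain with an empty plasmid is among these arrays. The plus RPL12A strain therefore differs from the wild type in the lost RPL12B locus, in whatever replaced the deleted loci, in the plasmid and in its copy of RPL12A all at once, and these cannot be told apart here.

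Rpl12 is a protein of the large ribosomal subunit that sits at the base of the stalk, the flexible arm on which translation factors are recruited and their GTPase activity is triggered. Both genes encode the same protein, and yeast lives without either, growing slowly. When phosphate runs short, yeast switches on the PHO genes (acid phosphatases that free phosphate, transporters that take it up, and enzymes that store it as polyphosphate) through the transcription factor Pho4, and when growth slows or conditions worsen it switches on a broad set of stress genes through Msn2 and Msn4. Genes of both kinds are among those described below.

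Signals are MAS5 intensities, which the authors' processing brought to the same 2% trimmed mean of 500.2 on each array. Of 5449 genes, 5439 were tested, and the background, set by probe sets for another yeast species, lay at a signal of 7.42 to 8.72. The arrays of a group gave a correlation of log2 signals of r = 0.972 for plus RPL12A and 0.989 for wild type, taken over genes, which are not independent of each other. A control probe set for 25S rRNA read 5720 and 277 in the plus RPL12A arrays, against 2476 and 148 in the wild type arrays. The 25S signal was low in replicate 2 of each of the 2 groups. It was 4933 and 312 in plus RPL12B, and high in both double deletion arrays, at 4319 and 3947. The part of the 25S signal in the results was not tested beyond the values given beside them. Log2 differences are plus RPL12A minus wild type unless said otherwise, with the standard error (SE) of limma, and adjusted p-values are those of limma after the Benjamini-Hochberg adjustment over all genes tested. A gene is called where that adjusted p is under 0.05. An exact test of 2 arrays against 2 cannot go below p = 0.333, and the number of arrays limits the precision of each value. In RNA from a whole culture, fewer cells with a transcript and less transcript per cell cannot be told apart.

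RPL12A was strongly expressed again. Its signals were 6079 and 5732 in plus RPL12A and 5321 and 5269 in wild type, against 28.8 and 6.88 in the double deletion. Both plus RPL12A arrays were slightly above both wild type arrays, by a log2 difference of 0.16 (95% interval -1.27 to 1.59, adjusted p = 0.895). The interval uses the spread within all groups of the 8 arrays. It thus includes the low signals of the double deletion and of plus RPL12B (8.18 and 15.5), strains without the gene. The arrays within plus RPL12A and within wild type lay closer together than this interval. The array reads messenger RNA and the signal nears the top of its range here, since the highest signals per array were 6841 to 8915. RPL12B was the gene that differed most, with signals of 48.5 and 20.1 in plus RPL12A, against 6537 and 7039.7 in wild type. Its difference was -7.76 (SE 0.95, adjusted p = 0.0159, 0.12 without wild type replicate 1). Both plus RPL12A signals lay above the background, and the double deletion arrays read 17.3 and 1.71. The strain thus carries the transcript of 1 of the 2 genes.

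The other stalk proteins did not pass the test. None of the 5 genes for the stalk base protein P0 (RPP0) and the acidic P proteins (RPP1A, RPP1B, RPP2A, RPP2B) was called, beside 3.97% of all genes. Their median was -0.08, beside 0.04 for all genes tested. RPP0 gave 5202 and 5536 in plus RPL12A and 5412 and 5542 in wild type. The double deletion read 4122 and 4336 for RPP0, below the arrays of both other strains. None of 5 genes that modify Rpl12 or help build the stalk was called: the methyltransferase genes RKM2 (-0.15), RMT2 (-0.017) and TAE1 (-0.17), and MRT4 (-0.068) and YVH1 (-0.21), whose products act in turn as the stalk base is assembled. Among the 16 nearest genes of the RPL12A and RPL12B loci, 8 on each chromosome, ARO80 alone was called. ARO80, a neighbour of RPL12B, encodes the activator of genes that break down aromatic amino acids. It gave 333 and 309.8 in plus RPL12A and 128 and 164 in wild type, without overlap (log2 difference 1.15, adjusted p = 0.0312, 0.196 without wild type replicate 1). The double deletion read 404 and 334 and plus RPL12B 387 and 309.6 for it. The other 15 neighbours lay between -0.50 for RML2, a mitochondrial ribosomal protein gene (adjusted p = 0.0659), and 0.34 for SIP1, a subunit of the Snf1 kinase (adjusted p = 0.135).

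Over all genes, 216 of 5439 were called (3.97%), 121 of them higher (2.22%) and 95 lower (1.75%) in plus RPL12A. At least 2-fold differences were found for 48 called higher (0.883%) and 13 called lower (0.239%). The median of all genes was 0.04. All 216 called genes had groups of arrays that did not overlap, so that separation is no further support for a called gene. Of all genes, 3205 had it too (58.9%), 1810 of them with both plus RPL12A arrays higher (33.3%) and 1395 with both lower (25.6%). The split of the calls depends on how the arrays are scaled: 86 were called higher and 166 lower with arrays centred on their median for S. cerevisiae genes, and 724 higher and 27 lower with arrays centred on hybridisation controls, which moves the median of all genes to 0.28. The genes that passed under each of the 4 scalings numbered 43 higher and 20 lower. With the replicate number as a block and the scaling unchanged, 719 genes were called, 406 higher and 313 lower. The calls also rest on few arrays. Without plus RPL12A replicate 1 or 2, 13 or 15 genes were called, without wild type replicate 1 or 2, 13 or 12, and without either double deletion array 52. Called in each of the 23 fits tried were 9 genes, all higher: ARO9 and ARO10 of aromatic amino acid breakdown, the marker genes URA3 and LEU2, NCA3 and YGP1 of the cell surface, the uncharacterised reading frames YJL213W and YCR099C, and ESBP6, which is related to monocarboxylate transporters. ESBP6 was singled out after its values were seen: it gave 1564 and 1580.3 in plus RPL12A and 531 and 637 in wild type.

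**Figure D1:**
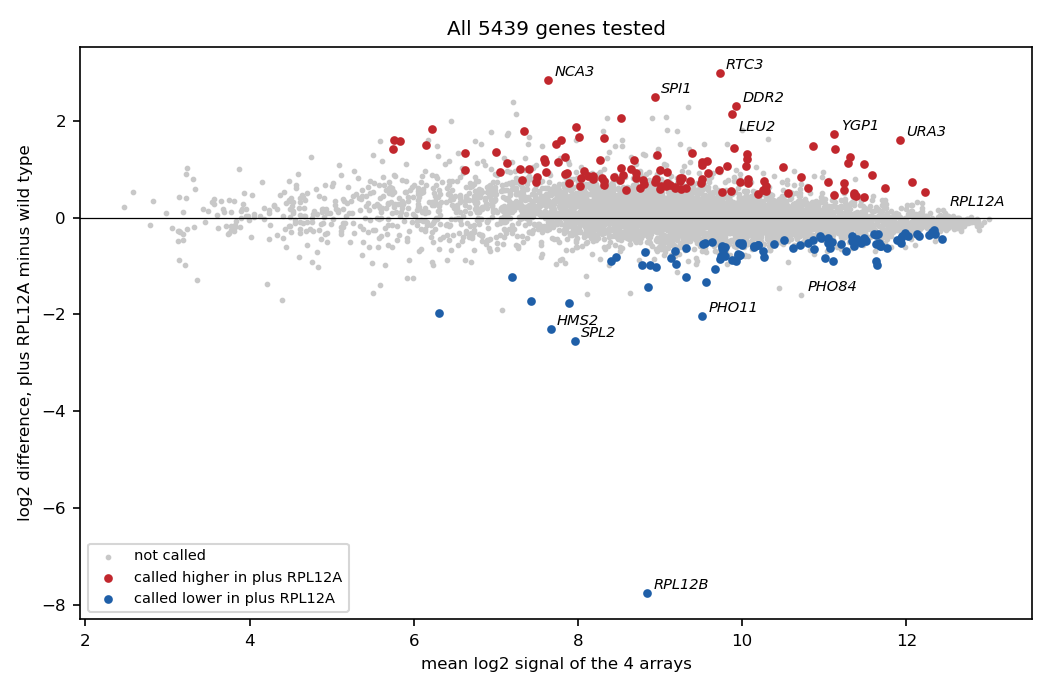
Log2 difference, plus RPL12A minus wild type, against the mean log2 signal of the 4 arrays, 1 point per gene tested. The 121 genes called higher are red and the 95 called lower are blue; RPL12A lies near 0 and RPL12B stands alone at -7.76.

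The strain that carries RPL12B in place of RPL12A gave a yardstick. Tested directly, plus RPL12A differed from plus RPL12B in 1 gene called higher (0.0184%), RPL12A itself, and in 0 called lower, with 66 higher and 27 lower at an unadjusted p under 0.05. No gene was called between them without either plus RPL12A array or either wild type array. RPL12B gave 48.5 and 20.1 in plus RPL12A and 5469 and 6446 in plus RPL12B, a difference of -7.57 (SE 0.95). It did not pass (adjusted p = 0.216), with a spread taken over all groups, including 17.3 and 1.71 in the double deletion. A gene this far apart was missed, so few calls here do not show that the strains are alike. For genes described below that were called against wild type, the difference between the plasmid strains was -0.02 (95% interval -0.23 to 0.19) for YGP1, -0.062 (-0.48 to 0.36) for LEU2 and 0.18 (-0.075 to 0.43) for URA3. The interval was wider for SPL2, at 0.24 (-0.58 to 1.06), and for PHO84, at 0.65 (-0.50 to 1.80). Apart from RPL12A, none of the genes named here was called between the plasmid strains; the shift of chromosome II, described last, was not tested.

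Marker genes of laboratory strains stood far apart. Of 6 such genes tested, 3 were called higher and 0 lower, beside 2.22% and 1.75% of all genes, with a median of 0.95, beside 0.04. URA3, the last enzyme of uridine monophosphate synthesis, gave 6636 and 6895 in plus RPL12A and 1993 and 2499 in wild type, a difference of 1.60 (SE 0.11, adjusted p = 0.00238). LEU2, a leucine synthesis enzyme, gave 1810.5 and 2158 in plus RPL12A, against 513 and 393 in wild type (2.14, SE 0.18, adjusted p = 0.00324). HIS3, a histidine synthesis enzyme, gave 859.9 and 704 in plus RPL12A and 293 and 344 in wild type (1.29, adjusted p = 0.0424, 0.205 without wild type replicate 1). For each of these genes both plus RPL12A arrays lay above both wild type arrays, as for every gene called higher. The double deletion, which carries no plasmid, was also high, with 5477 and 5878 for URA3, 2463 and 2417 for LEU2 and 904 and 1558 for HIS3. ADE2 of adenine synthesis (0.52), the arginine permease gene CAN1 (0.60) and LYS2 of lysine synthesis (-0.12) did not pass. A probe set reads a gene's transcript whether it comes from the chromosome, a deletion cassette or a plasmid, and the alleles of these strains are not given in the labels.

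Genes of uracil use moved beside URA3, in both directions. FUR1, which salvages uracil into its nucleotide, was at 2281 and 2268 in plus RPL12A, against 4469 and 4485 in wild type (-0.98, adjusted p = 0.00442, 0.0787 without wild type replicate 2). The uracil permease gene FUR4 went the other way, with 1281 and 889.7 in plus RPL12A and 496 and 501 in wild type (1.10, adjusted p = 0.0391). FCY21, of the cytosine and purine permease family, was lower, at 76.1 and 118 in plus RPL12A and 309.5 and 316 in wild type (-1.72, adjusted p = 0.0209). The arrays of plus RPL12A and wild type did not overlap for any of the 3 genes, as for every called gene. FUR4 and FCY21 were no longer called without wild type replicate 1. Of the 15 pyrimidine genes tested, 2 were called higher and 1 lower, beside 2.22% and 1.75% of all genes, with a median of -0.02.

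The largest rises were led by stress and cell surface genes. RTC3, a small protein related to part of the SBDS ribosome maturation factor, gave 1698 and 3356 in plus RPL12A and 265 and 339 in wild type, 7.97-fold higher (2.99, SE 0.49, adjusted p = 0.0312, 0.196 without wild type replicate 1). The SUN family gene NCA3, linked to expression of mitochondrial ATP synthase subunits, gave 696 and 408 in plus RPL12A, against 74.3 and 73.7 in wild type, 7.21-fold higher (2.85, SE 0.24, adjusted p = 0.00324). SPI1, a cell wall protein anchored by a lipid, gave 853 and 1584 in plus RPL12A and 197 and 214 in wild type (2.50, adjusted p = 0.0377, 0.199 without wild type replicate 1 and 0.061 after quantile normalization). The plus RPL12A arrays of RTC3, NCA3 and SPI1 differed from each other more than the wild type arrays did, yet none came near a wild type array. The double deletion, which carries no plasmid, read 3596 and 2465 for RTC3, 1061 and 936 for NCA3 and 1115 and 971 for SPI1. DDR2, induced by many stresses, gave 2213 and 2125 in plus RPL12A and 324 and 591 in wild type (2.31, adjusted p = 0.0203, 0.0931 without plus RPL12A replicate 2). YGP1, a secreted glycoprotein made when nutrients run low, had the lowest adjusted p of the genes named here (0.000794), with 4026 and 4105 in plus RPL12A and 1325 and 1131 in wild type (1.73, SE 0.087).

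Among the other large rises, 4 were of reading frames or proteins with little known role. YJL213W gave 718 and 796 in plus RPL12A and 175 and 185 in wild type (2.07). YCR099C and YCR101C, which lie close together on chromosome III, rose by 1.67 and 1.80, and YER039C-A by 1.61. PET18, kept here with the thiamine genes, gave 580.3 and 401 in plus RPL12A and 138 and 124 in wild type (1.88). SRX1, the enzyme that repairs oxidised peroxiredoxins, gave 143 and 138 in plus RPL12A, against 34.9 and 44.3 in wild type (1.84). GPG1, a proposed partner of the Gpa2 G protein, and NQM1, a transaldolase, rose by 1.65 and 1.61. Their adjusted p-values ran from 0.00238 for YJL213W to 0.0451 for YER039C-A. YJL213W and YCR099C stayed called without any single array. For the others the adjusted p reached 0.118 for PET18 without wild type replicate 2, and 0.169 for SRX1, 0.161 for GPG1, 0.144 for NQM1, 0.196 for YCR101C and 0.218 for YER039C-A without wild type replicate 1.

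**Figure D2:**
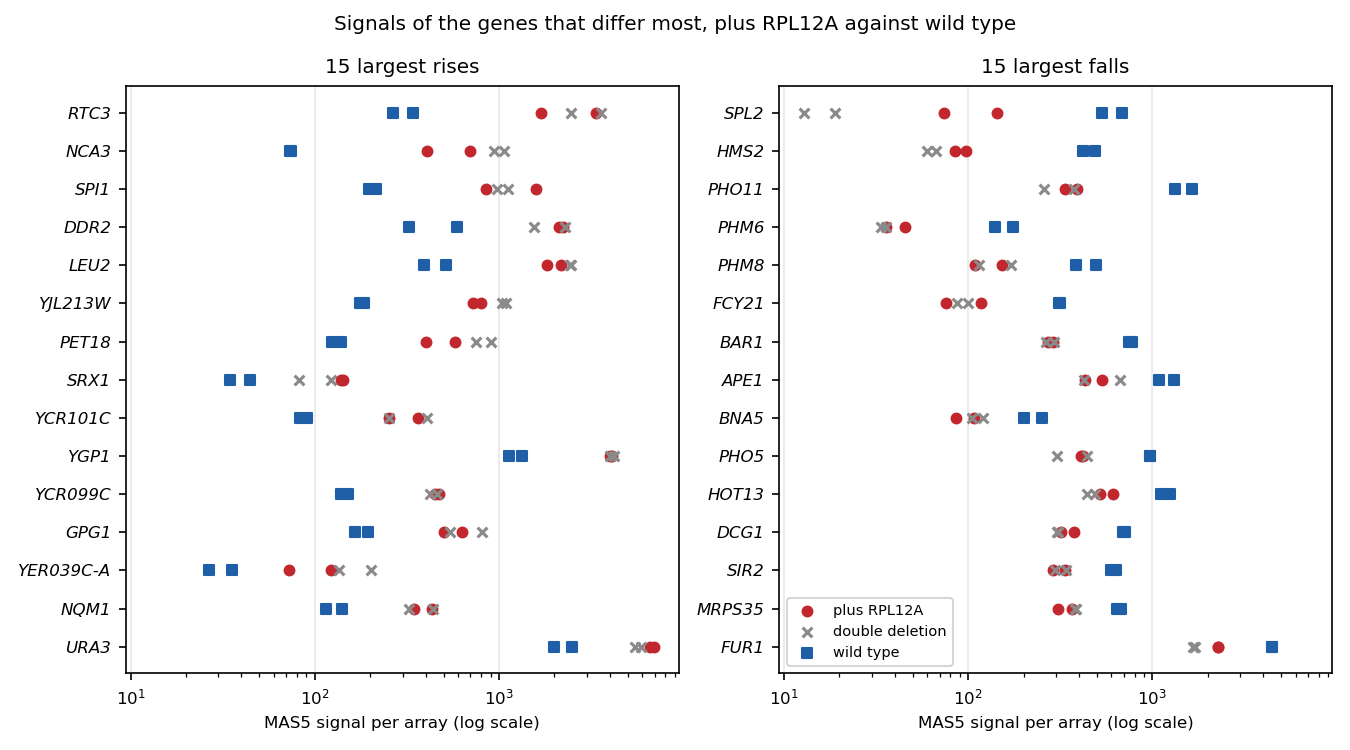
Signal on each array, on a log scale, of the 15 called genes with the largest rises and the 15 with the largest falls besides RPL12B, 1 gene per row and 2 points per group. Plus RPL12A (red) lies apart from wild type (blue) in each row, which was a condition for being shown. The double deletion (grey crosses) is shown beside them, and for SPL2 it lies below both.

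Stress genes as a group lay higher, though few passed the test. Of 50 genes of the general stress response, 6 were called higher and 0 lower, beside 2.22% and 1.75% of all genes. Their median was 0.88, beside 0.04 for all genes, 47 of the 50 were positive, and 39 had both plus RPL12A arrays above both wild type arrays, beside 33.3% of all genes. The range ran from -0.09 to 2.99. In the double deletion the median of the 50 was 0.83, against the same wild type arrays. For plus RPL12A minus the double deletion it was -0.00033. Both double deletion arrays had high 25S signal and plus RPL12A replicate 2 had low, so that difference sets unlike arrays side by side. The called members were RTC3, SPI1, DDR2, YGP1, NQM1 and the membrane protecting protein gene HSP12 (0.54). The shift was larger between the arrays with low 25S signal than between those with high 25S signal, with medians of 1.14 and 0.60, and with the 25S split as a block 14 of the 50 were called higher, beside 8% of all genes. Of 26 chaperone genes, 0 were called higher and 3 lower, beside 2.22% and 1.75% of all genes, among them SSZ1, a chaperone bound to ribosomes (-0.59, adjusted p = 0.0489), and EGD2, of the complex that binds emerging chains (-0.33, adjusted p = 0.0339). HSP10, the cofactor of the mitochondrial chaperonin, was the third (-0.41, adjusted p = 0.0489). The lost calls reached an adjusted p of 0.227 for SSZ1 without wild type replicate 1, and 0.243 for HSP10 and 0.214 for EGD2 without wild type replicate 2.

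Several phosphate starvation genes were lower in plus RPL12A than in wild type. Of 7 phosphatase genes tested 3 were called lower and 0 higher, and of 11 other PHO targets 4 were called lower and 1 higher, beside 1.75% lower and 2.22% higher of all genes. The medians were -0.07 and -0.39, beside 0.04 for all genes. Differences ran from -2.04 to 0.87 for the phosphatases, with 2 positive and 5 negative. For the other targets they ran from -2.55 to 1.72, with 3 positive and 8 negative. SPL2, a small inhibitor that holds back phosphate uptake by the low affinity transporters, gave 74.3 and 143 in plus RPL12A and 688 and 533 in wild type, 5.88-fold lower (-2.55, SE 0.35, adjusted p = 0.0209, 0.169 without wild type replicate 1). The groups were far apart, and the double deletion was lower still, at 12.9 and 19. The secreted acid phosphatase gene PHO11 gave 336 and 388 in plus RPL12A, against 1648 and 1332 in wild type (-2.04, adjusted p = 0.0286), and its probe set may also read its near copy PHO12. PHO5, the main secreted acid phosphatase, gave 422 and 411 in plus RPL12A and 975 and 971 in wild type (-1.23, adjusted p = 0.0451). PHM8, a phosphatase of lysophosphatidic acid and nucleotides, gave 153 and 108 in plus RPL12A, against 496 and 383 in wild type (-1.76, adjusted p = 0.0293). The arrays of plus RPL12A and wild type did not overlap for PHO11, PHO5 or PHM8, as for every called gene. The double deletion read 374 and 259 for PHO11, 442 and 303 for PHO5 and 170.1 and 114 for PHM8. Without wild type replicate 1 the adjusted p was 0.196 for PHO11 and 0.196 for PHM8, and without wild type replicate 2 it was 0.219 for PHO5.

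PHM6, a phosphate regulated gene of unknown role, and genes of polyphosphate synthesis were lower as well. PHM6 gave 35.8 and 45.2 in plus RPL12A and 139.5 and 176 in wild type (-1.96, adjusted p = 0.0156). VTC1 and VTC3, subunits of the vacuolar polyphosphate polymerase complex, were lower by smaller steps, with 2726 and 2499 in plus RPL12A and 4002 and 3656 in wild type for VTC1 (-0.55, adjusted p = 0.0244) and a difference of -0.90 for VTC3 (adjusted p = 0.042). VTC4, its catalytic subunit (-0.49, adjusted p = 0.0799), and VTC2 (-0.21, adjusted p = 0.463) did not pass. GPP2, a glycerol phosphatase that also answers osmotic stress, rose (0.47, adjusted p = 0.0418). PHM7 gave 192 and 338 in plus RPL12A, against 79.9 and 74.7 in wild type, and did not pass (adjusted p = 0.0999). Without 1 wild type array the adjusted p of the called genes reached 0.118 for PHM6 and 0.208 for GPP2 (replicate 2), and 0.196 for VTC1 and 0.199 for VTC3 (replicate 1).

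The transporters and regulators did not pass the test. PHO84, the high affinity phosphate transporter, gave 843 and 1119 in plus RPL12A and 3438 and 2494 in wild type, without overlap, but with a spread that left the difference of -1.59 uncalled (95% interval -2.74 to -0.44, adjusted p = 0.106). With the 25S split as a block, which calls 13.4% of all genes, it was called (adjusted p = 0.0481). The low affinity transporter genes PHO87 (0.22), PHO90 (0.038) and PHO91 (0.42), the sodium coupled transporter gene PHO89 (-0.37) and GIT1, which takes up glycerophosphoinositol (-0.66), were not called. PHO91 was called higher with the 25S split as a block (adjusted p = 0.0352) and with arrays centred on the hybridisation controls (adjusted p = 0.020), against 0.0678 without these changes. None of 10 signalling genes was called, beside 3.97% of all genes, and their median was -0.03. Among them the kinase genes PHO85 (-0.07), its cyclin PHO80 (0.26), its inhibitor PHO81 (-0.039) and the transcription factor genes PHO4 (0.46) and PHO2 (0.15) had adjusted p-values from 0.236 to 0.916.

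**Figure D3:**
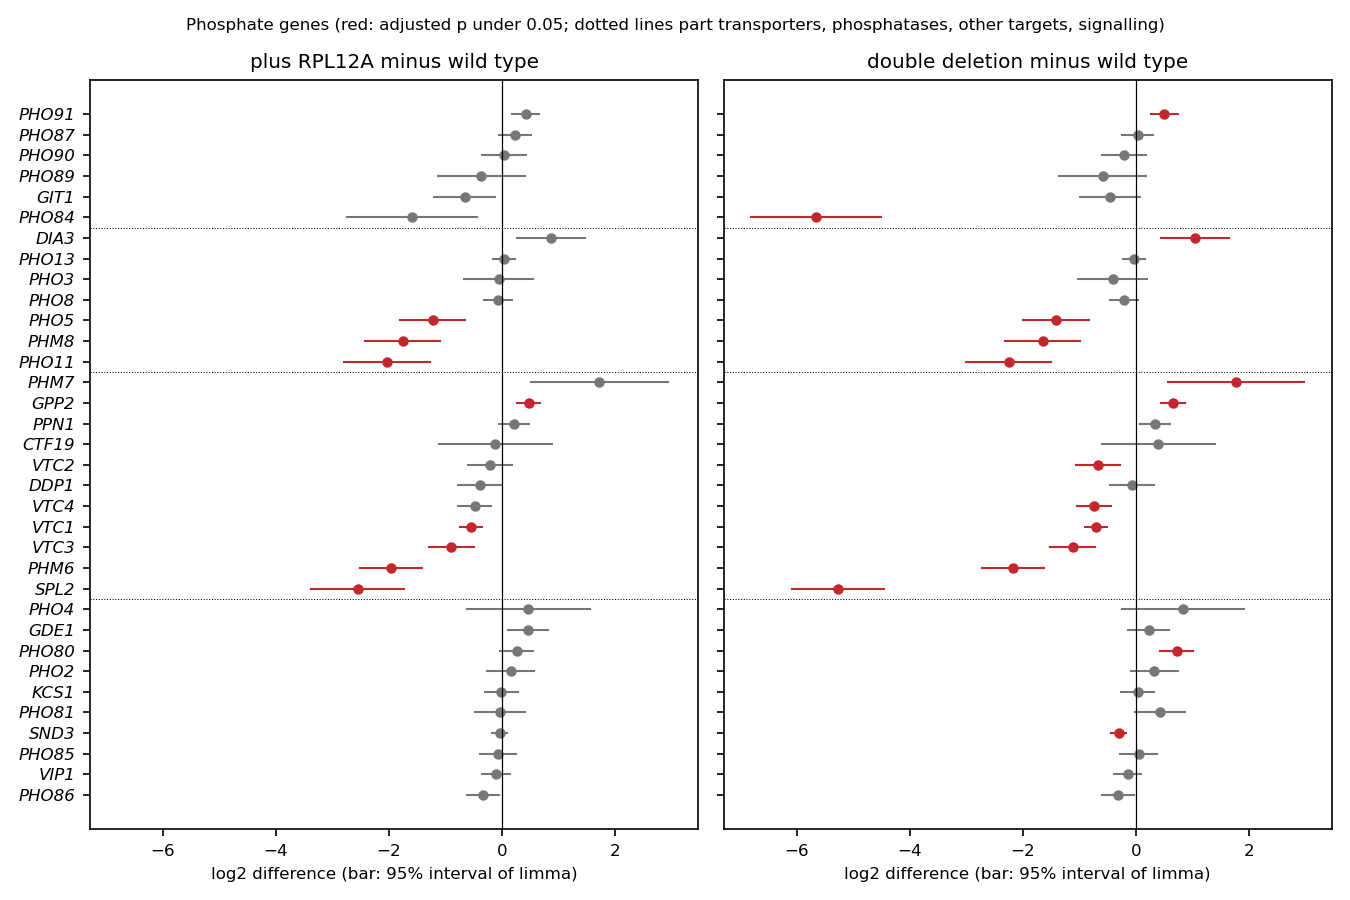
Log2 differences of the phosphate genes, plus RPL12A minus wild type on the left and double deletion minus wild type on the right, with the 95% interval of limma; red marks an adjusted p under 0.05. Both panels share the wild type arrays; for the right panel, 20.4% of all genes passed as higher and 12.2% as lower. PHO84 and SPL2 lie at -1.59 and -2.55 on the left, against -5.66 and -5.27 on the right.

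Against the double deletion, 12 genes were called higher in plus RPL12A (0.221%) and 0 lower, with 386 higher and 466 lower at an unadjusted p under 0.05. This comparison shares the plus RPL12A arrays with the one above. It also sets double deletion arrays with high 25S signal against plus RPL12A arrays, of which replicate 2 was low. Its values are therefore only set beside those above. It gave 4 or 5 calls without 1 of the plus RPL12A arrays, either wild type array or double deletion replicate 1. The 12 are RPL12A and 11 others, which differ in where the plus RPL12A strain lies relative to the wild type. SPL2 was 2.72 above the double deletion and -2.55 from wild type. PHO84 was 4.06 above the double deletion (adjusted p = 0.0322), where it read 65.6 and 51.3. SUL1, a sulfate permease, gave 1434 and 1448 in plus RPL12A, against 132 and 174 in the double deletion (3.25, adjusted p = 0.000482) and 2249.8 and 2336 in wild type (-0.67, adjusted p = 0.0599). SUL1 was called lower than in wild type with the 25S split as a block (adjusted p = 0.0342) and with arrays centred on their median for S. cerevisiae genes (adjusted p = 0.0387). The arrays of plus RPL12A were above those of the double deletion and below those of wild type for SPL2, PHO84 and SUL1.

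The remaining genes called against the double deletion lay below, above or near the wild type. RPS22B, a small subunit ribosomal protein, SAM4, which makes methionine from S-adenosylmethionine, and ARG1, an arginine synthesis enzyme, remained called below wild type. RPS22B gave 2264 and 2387 in plus RPL12A, against 1112 and 911 in the double deletion (1.21, adjusted p = 0.0193) and 4501 and 4146 in wild type (-0.89, adjusted p = 0.0214). SAM4 differed by -0.43 and ARG1 by -0.52 from wild type, beside 0.67 and 0.72 against the double deletion. SNZ1 and SNO1, the neighbouring genes of vitamin B6 synthesis, were called above both: SNO1 gave 643 and 661 in plus RPL12A, against 223 and 207 in the double deletion (1.60) and 346 and 401 in wild type (0.81, adjusted p = 0.0312). SNZ1 gave 3023 and 3167 in plus RPL12A, against 1126 and 1274 in the double deletion (1.37) and 2099 and 2357 in wild type (0.48, adjusted p = 0.0451). ARO3, ARO4 and QDR2, singled out after their values were seen, lay near wild type. ARO3 and ARO4, which start aromatic amino acid synthesis, differed from wild type by -0.0083 and -0.13, and from the double deletion by 0.57 and 0.61, and the drug exporter gene QDR2 by 0.28 and 2.39. The adjusted p against wild type reached 0.183 for RPS22B, 0.196 for SAM4, 0.199 for ARG1, 0.199 for SNO1 and 0.224 for SNZ1 without wild type replicate 1.

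ARO9 and ARO10, which act in the breakdown of aromatic amino acids, rose. ARO9, an aromatic aminotransferase, gave 3956 and 3396 in plus RPL12A and 1303 and 1449.9 in wild type (1.41, SE 0.12, adjusted p = 0.00324). ARO10, the decarboxylase of the next step, gave 4066 and 3786 in plus RPL12A, against 1518 and 1768 in wild type (1.26, SE 0.098, adjusted p = 0.00324). Both genes had plus RPL12A arrays well above the wild type arrays, as did their activator ARO80, described above. The double deletion, with 3126 and 3118 for ARO9 and 3686 and 3460.4 for ARO10, was high too. Of 14 aromatic amino acid genes tested, these 2 were called higher and 0 lower, beside 2.22% and 1.75% of all genes, and the median was -0.08, beside 0.04.

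Other amino acid and nitrogen genes moved singly. LYS5, which activates the lysine synthesis enzyme Lys2, rose (532 and 577 in plus RPL12A and 310.5 and 319 in wild type, 0.82). THR1 (-0.36) and HOM6 (-0.33) of threonine synthesis and the allantoate permease gene DAL5 (-0.80) fell. Their adjusted p-values ran from 0.0214 for DAL5 to 0.0451 for HOM6, and reached 0.19 for LYS5, 0.183 for DAL5 and 0.212 for THR1 without wild type replicate 1, and 0.231 for HOM6 without wild type replicate 2. No gene was called among 12 of Gcn4 and its control, 24 of sulfate assimilation and methionine synthesis, 19 amino acid permease genes or 18 purine genes. The share called of all genes was 3.97%, at which lists of this size can hold none. Their medians were -0.04, -0.06, 0.19 and 0.14.

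Some genes of carbon metabolism and of the cell wall rose. PCK1, the first committed enzyme of gluconeogenesis, gave 243 and 239 in plus RPL12A and 97.4 and 145 in wild type (1.02, adjusted p = 0.0451). ICL1 of the glyoxylate cycle gave 327 and 314 in plus RPL12A, against 166 and 173 in wild type (0.92, adjusted p = 0.0235). CIT3, a mitochondrial citrate synthase, gave 132 and 108 in plus RPL12A and 37.6 and 46.7 in wild type (1.51, adjusted p = 0.0209). For each of these, both plus RPL12A arrays lay above both wild type arrays, as for every gene called higher. Of 14 genes of gluconeogenesis and the glyoxylate cycle, 2 were called higher and 0 lower, beside 2.22% and 1.75% of all genes, with a median of 0.42. CIT3 was the 1 gene called of 18 of the citric acid cycle, whose median was 0.046, beside 3.97% called of all genes. None was called of 21 genes of glycolysis and fermentation, 36 of the respiratory chain and ATP synthase or 17 of hexose transport. In the cell wall list, 4 of 32 genes were called higher and 0 lower, beside 2.22% and 1.75% of all genes, with a median near 0. The called genes were NCA3, the mannoprotein genes PIR3 (1.12) and TIP1 (0.88), and SCW10, a glucanase relative (0.45). TIP1 gave 3869.9 and 4472 in plus RPL12A and 2249 and 2277 in wild type. Without wild type replicate 1 the adjusted p reached 0.199 for PCK1, 0.183 for ICL1, 0.161 for CIT3, 0.158 for TIP1 and 0.224 for SCW10, and without plus RPL12A replicate 2 it was 0.175 for PIR3.

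Genes of thiamine, biotin and drug transport mostly lay higher, though few were called. Differences were positive for 13 of 14 thiamine genes and 19 of 22 multidrug transport genes, and negative for 1 and 3. Both plus RPL12A arrays lay above both wild type arrays for 9 and 14 of them, beside 33.3% of all genes. All 6 genes of biotin and vitamin uptake were positive, with a median of 0.44. Of 14 thiamine genes 2 were called higher and 0 lower, beside 2.22% and 1.75% of all genes, PET18 and THI6, which joins the parts of thiamine (0.76, adjusted p = 0.0489, 0.235 without wild type replicate 2). Their median was 0.49. BIO3 of biotin synthesis (0.84, adjusted p = 0.0418, 0.205 without wild type replicate 1) and IZH3, a membrane protein of zinc balance (0.57, adjusted p = 0.0312, 0.196 without wild type replicate 1), also rose. Of 22 multidrug transport genes, PDR5, the major drug efflux pump, was called higher (1763 and 1841 in plus RPL12A and 1228 and 1298 in wild type, 0.51, adjusted p = 0.0451, 0.218 without wild type replicate 1) and 0 lower, a share of 4.55% beside 2.22% called higher and 3.97% called of all genes, and the median was 0.44. AAD14, an aryl alcohol dehydrogenase, gave 189 and 179.6 in plus RPL12A, against 99.8 and 91.1 in wild type (0.95, adjusted p = 0.0286, 0.173 without wild type replicate 2).

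Few genes of cytosolic ribosomal proteins were called, all of them lower, beside 1.75% called lower and 3.97% called of all genes. Of 68 large subunit genes 2 were called lower, RPL9B (-0.62, adjusted p = 0.0366) and RPL6B (-0.29, adjusted p = 0.0463), and of 53 small subunit genes RPS22B and RPS7B (-0.25, adjusted p = 0.0451), with 0 higher in either group, which is 2.94% and 3.77% of these genes. Of the 68 and the 53, 67 and 52 were negative, and 52 and 42 had both plus RPL12A arrays below both wild type arrays, beside 25.6% of all genes. With the 25S split as a block, 6 of the 68 and 7 of the 53 were called lower and 0 higher, beside 5.39% and 8% of all genes. Copies of these gene pairs share sequence, so a signal may include the other copy. The medians were -0.12 and -0.14, and both changed sign with arrays centred on the hybridisation controls, where they were 0.12 and 0.11 and the median of all genes was 0.28. Of 145 ribosome biogenesis genes 1 was called lower, GAR1 of the small nucleolar ribonucleoproteins (-0.37, adjusted p = 0.0493), and of 36 translation factor genes none. Of the 145 and the 36, 116 and 32 were negative and 29 and 4 positive. Both plus RPL12A arrays lay below both wild type arrays for 78 and 21 of them, beside 25.6% of all genes. They lay above for 7 and 1, beside 33.3%. Beside the median of -0.12 in plus RPL12A, the median of the large subunit genes was -0.30 in the double deletion, each against the same wild type arrays. Without wild type replicate 1 the adjusted p was 0.199 for RPL9B and 0.22 for RPS7B, and without wild type replicate 2 it was 0.242 for RPL6B and 0.245 for GAR1.

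Of 71 mitochondrial ribosomal protein genes, 13 were called lower and 0 higher, beside 1.75% and 2.22% of all genes. Their median was -0.42, beside 0.04 for all genes, and 60 of the 71 had both plus RPL12A arrays below both wild type arrays, beside 25.6% of all genes. MRPS35 was the furthest, with 367 and 306 in plus RPL12A and 645 and 676 in wild type (-0.98, adjusted p = 0.0214). MRPL15 gave 860.2 and 671 in plus RPL12A, against 1319 and 1233 in wild type (-0.75, adjusted p = 0.0416). MRPL24 and MRPL13 differed by -0.70 and -0.68. The count depends on the setting, as 2 were called lower after quantile normalization and 37 with the 25S split as a block (beside 5.39% of all genes), while the medians of the arrays with high and with low 25S signal were -0.37 and -0.49. The adjusted p reached 0.161 for MRPS35, 0.205 for MRPL15 and 0.199 for MRPL24 without wild type replicate 1, and 0.209 for MRPL13 without wild type replicate 2. The median of these genes was -0.44 in the double deletion against wild type.

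Ergosterol synthesis gave 4 genes called lower and 0 higher of 24, beside 1.75% and 2.22% of all genes, with a median of -0.16. ERG10, the first enzyme of the pathway, gave 2646 and 2726 in plus RPL12A and 3923 and 4099.8 in wild type (-0.58, adjusted p = 0.0159). IDI1 (-0.47), ERG26 (-0.42) and ERG27 (-0.41) act later and were lower by less than ERG10. Of the 24, 1 was called lower after quantile normalization. The adjusted p was 0.118 for ERG10, 0.193 for IDI1 and 0.208 for ERG26 without wild type replicate 2, and 0.196 for ERG27 without wild type replicate 1.

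**Figure D4:**
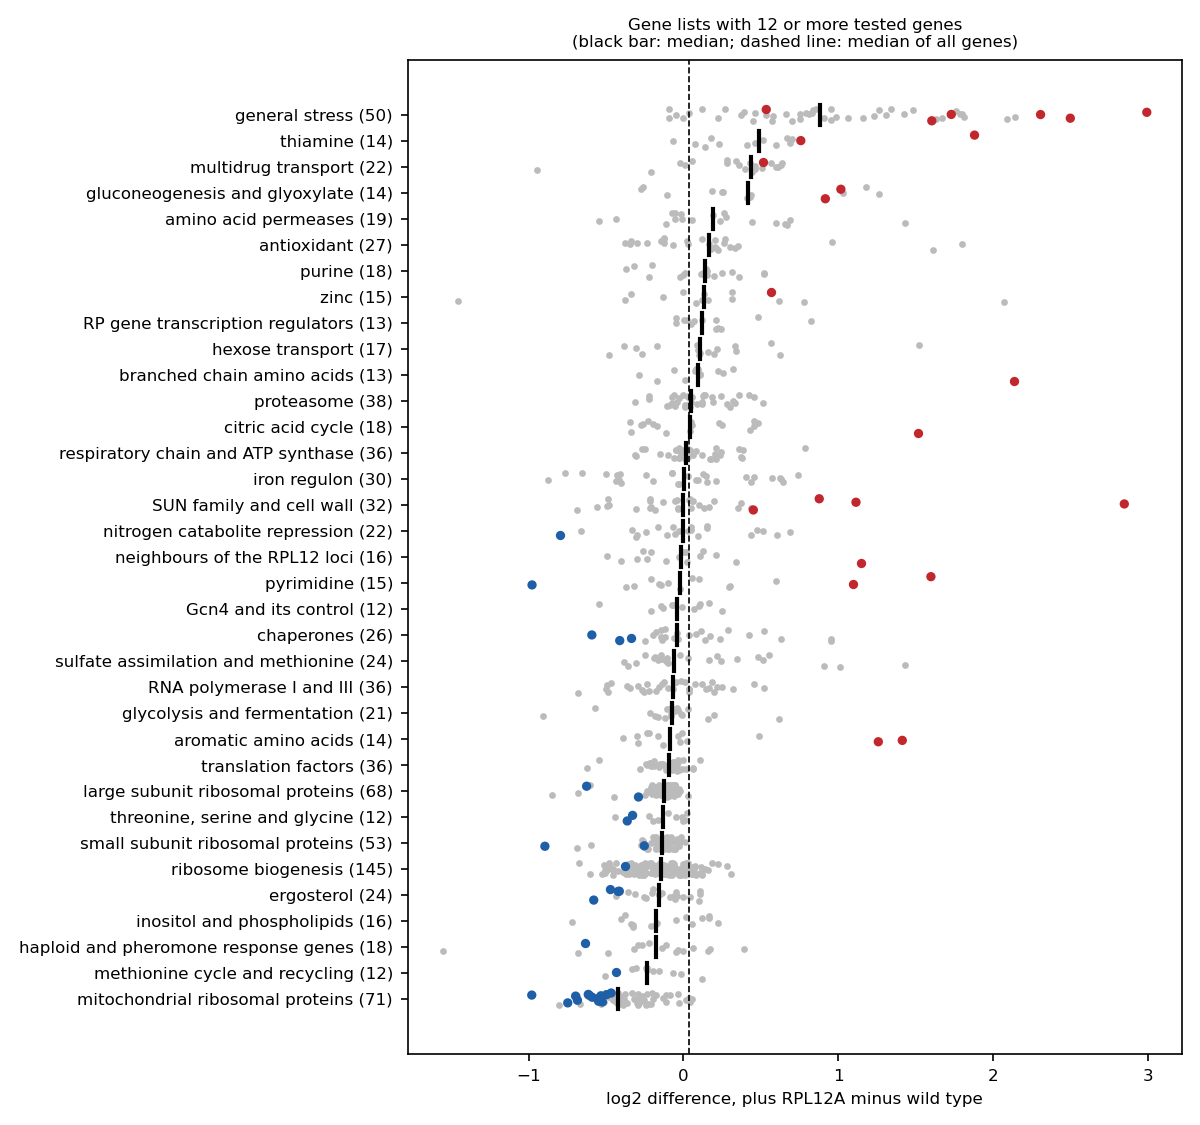
Log2 differences, plus RPL12A minus wild type, of the genes in each list with 12 or more tested genes (number in brackets), lists ordered by their median. Red and blue points are genes called higher and lower, grey points were not called, black bars are medians and the dashed line is the median of all genes, 0.04; general stress lies at the top and mitochondrial ribosomal proteins at the bottom.

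Besides the phosphate genes, the largest falls had varied roles. HMS2, a relative of heat shock factors that acts in filamentous growth, gave 97.8 and 85.4 in plus RPL12A and 419.6 and 489 in wild type, 4.96-fold lower (-2.31, SE 0.25, adjusted p = 0.0109). APE1, a vacuolar aminopeptidase, gave 532 and 429 in plus RPL12A, against 1314 and 1089 in wild type (-1.32, adjusted p = 0.0379). BNA5, an enzyme of NAD synthesis from tryptophan, gave 85.8 and 108 in plus RPL12A and 252 and 201 in wild type (-1.23, adjusted p = 0.0312). HOT13, which assists import into the mitochondrial intermembrane space, differed by -1.06 and DCG1, regulated by nitrogen source, by -1.01. SIR2, the histone deacetylase of silent chromatin, gave 289 and 336 in plus RPL12A and 598 and 635 in wild type (-0.98, adjusted p = 0.0451). Plus RPL12A arrays lay below the wild type arrays for all of these, as the choice of these genes required. Without 1 wild type array the adjusted p reached 0.116 for HMS2, 0.125 for HOT13 and 0.224 for SIR2 (replicate 2), and 0.204 for APE1, 0.199 for BNA5 and 0.192 for DCG1 (replicate 1).

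Mating type genes gave a single call each among the a-specific and the haploid genes, beside 3.97% called of all genes. Of 6 alpha-specific genes, 0 were called. The a cell receptor gene STE2 gave 2468 and 2692 in plus RPL12A and 3062 and 2910.4 in wild type (-0.21, adjusted p = 0.195). STE3, the receptor gene of alpha cells, gave 39.5 and 44.8 in plus RPL12A and 42.8 and 58.9 in wild type (-0.25, adjusted p = 0.623). Of 7 a-specific genes, BAR1, the secreted protease that cleaves alpha factor, was called lower, with 272 and 289.8 in plus RPL12A and 773 and 747 in wild type (-1.44, SE 0.16, adjusted p = 0.0132, 0.116 without wild type replicate 2). Among 18 haploid and pheromone response genes, RME1, a repressor of meiosis, was lower (-0.64, adjusted p = 0.0244, 0.17 without wild type replicate 2). HO, the mating type switching endonuclease, gave 316 and 169 in plus RPL12A, against 816 and 566 in wild type and 91.9 and 72.9 in the double deletion, and its difference of -1.55 from wild type did not pass (adjusted p = 0.0982).

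Genes of chromosome II lay higher as a whole in the plus RPL12A arrays. The median difference of its 385 tested genes was 0.20, beside -0.0013 to 0.08 for the other chromosomes. Relative to the median of all genes on each array, chromosome II stood at 0.22 and 0.087 in plus RPL12A, against -0.0030 and 0.0030 in wild type, at -0.043 and -0.036 in the double deletion and at -0.044 and -0.036 in plus RPL12B. The other chromosomes ran from -0.051 to 0.047 and from -0.037 to 0.040 on the same plus RPL12A arrays. Both plus RPL12A arrays were thus above their other chromosomes, replicate 1 more so than replicate 2. A shift larger than that of plus RPL12A replicate 2 was also seen elsewhere, as chromosome I stood at 0.12 on plus RPL12B replicate 2. Without plus RPL12A replicate 1 the excess of chromosome II over the other chromosomes was 0.092. Without plus RPL12A replicate 2 it was 0.24, and over both it was 0.17. On chromosome II 18 genes passed as higher (4.68%) and 4 as lower, beside 2.22% and 1.75% of all genes, and the share called higher on chromosome V was 5.79%. Positive differences were found for 270 (70.1%), beside 49.4% to 56.7% of the genes of the other chromosomes. Split into 10 runs of neighbouring genes, which was done after the values were seen, chromosome II lay at 0.13 to 0.31 in replicate 1 and at -0.011 to 0.14 in replicate 2. Among the genes named above, FUR4, TIP1, PHO5, SUL1, PHO89, LYS2, ARO4 and TAE1 lie on it; FUR4 and TIP1 were called higher and PHO5 lower, and the others were not called. No test was made of a chromosome, and its copy number was not measured here.

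**Figure D5:**
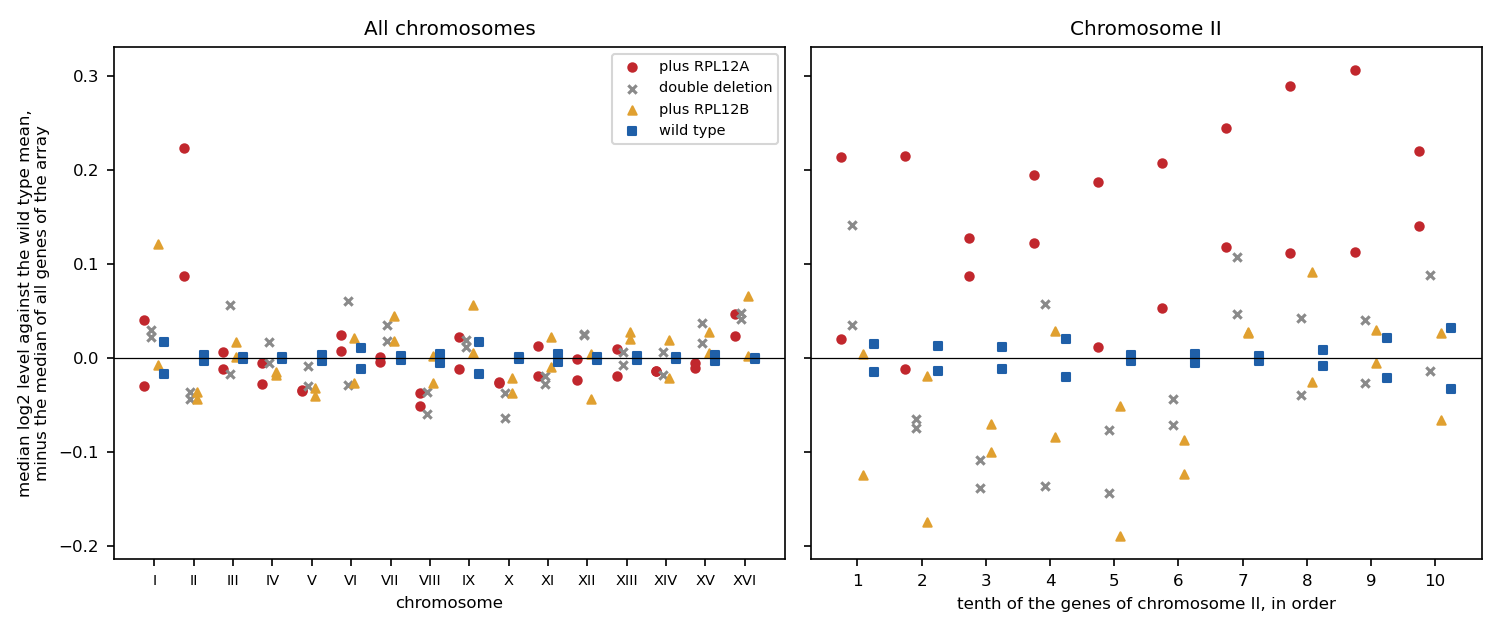
Median log2 level of the genes of each chromosome (left) and of 10 runs of neighbouring genes along chromosome II (right), against the wild type mean and minus the median of all genes of the array, 2 points per group. The plus RPL12A arrays (red) lie at 0.22 and 0.087 on chromosome II and within -0.051 to 0.047 on the others.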

How the data were processed

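RNA of 8 cultures, labelled biological replicates, was read on 1 array each, with 10 ug per labelling. The authors deposited 1 linear intensity per probe set and array, for which the submitters' processing notes name MAS5 (version not given in the sources used here). Annotation linked 5498 probe sets to S. cerevisiae and 1746 to S. pombe. The brightest probe set stood for each of the 47 genes that had several. Names were brought up to date with a RefSeq gene table, from which no coordinates are printed. Background was the 95th percentile of an array's S. pombe signals, and genes above it on 2 or more arrays entered the test. No pseudocount was added in the main fit.

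The log2 values, computed here from the deposited intensities, were fitted with limma 3.58.1 in R 4.3.3 (a mean per group over all 8 arrays, intensity trend, 4 residual and 3.23 prior degrees of freedom), tested 2-sided, with the Benjamini-Hochberg adjustment per comparison. Figures were drawn with matplotlib 3.10.9. Gene lists were described by counts and medians. The comparison, the lists and the alternatives were chosen with earlier results of these data known. Named are RPL12A, RPL12B and the 15 largest called rises and falls. For the lists closest to phosphate, sulfate uptake, the stalk, markers, mating type and the deleted loci, any tested gene could be named, called or not. Some of those genes stand only in the counts, medians and ranges of their list. Of each other list, up to 4 called genes are named. Picking a gene by its call also required plus RPL12A and wild type arrays that did not overlap. Genes outside these naming rules are marked as such or stand as members of a list.

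Simulated data had the same design, with 5439 genes and 50 changed per size. There limma called 22% of the genes changed by 0.5 (log2), 84% for 1, 96% for 2 and 100% for 4, and 8 unchanged genes. The simulated noise was independent between arrays, whereas the real arrays numbered 2 deviated together, at correlations of 0.0498 to 0.795. Recovery and false calls in the real data may therefore differ. Other settings tried were quantile normalization, centring on 18 hybridisation control probe sets or on the S. cerevisiae median, adding 16 to each signal, raising low signals to the background, filtering at the 99th percentile or not at all, no trend, robust variances, a fit of the 4 compared arrays only, the replicate number or the 25S split (at a signal of 1000) as a block, the mean of a gene's probe sets, leaving out each array, an adjusted p under 0.01 and a change of 2-fold or more. The fit to the 5 arrays with high 25S signal and all chromosome II alternatives were added after the data were seen. No sequences are shown.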

Additional observations from a re-analysis of the deposited data

Results flagged for a closer look

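Flagged here are 4 values for which the plasmid strains lay on opposite sides of the same wild type arrays. The share of all genes placed like this is not given, so these values do not show how rare the pattern is. RPL12B is not among them, as it was below wild type in both plasmid strains. It gave 48.5 and 20.1 in plus RPL12A and 5469 and 6446 in plus RPL12B. RPL12A was 9.03 higher on the log2 scale in plus RPL12A than in plus RPL12B, which follows from the plasmids they carry and was the 1 gene called between them. PRM1, a membrane protein of mating cell fusion, gave 19.4 and 21.6 in plus RPL12A, against 39.2 and 34.6 in plus RPL12B and 22.5 and 27.9 in wild type. Both plus RPL12A arrays lay below wild type and both plus RPL12B arrays above it, a log2 difference of -0.84 between the plasmid strains, and beyond the adjusted fit, where it was not called, this difference was not tested. The genes of chromosome II, relative to all genes of an array, lay above wild type in both plus RPL12A arrays and below it in both plus RPL12B arrays, 0.19 apart in the median. Those of chromosome XV lay -0.024 apart, below wild type in plus RPL12A and above it in plus RPL12B. That gap is small beside the range of chromosomes other than II on plus RPL12A replicate 1, -0.051 to 0.047. Neither chromosome difference was tested.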

How the results depend on the processing

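The count of 216 called genes (121 higher, 95 lower) stayed within 1.5 times under a pseudocount, a floor, either filter, robust variances and the mean of probe sets. Centring on the S. cerevisiae median gave 166 lower. Quantile normalization gave 80 (47 higher, 33 lower), hybridisation control centring 751 (724 and 27), no trend 103 (72 and 31), the compared arrays alone 77 (44 and 33), the 25S block 728 (435 and 293), and the 5 arrays with high 25S signal 22 (18 and 4). A threshold of 0.01 left 13 (12 and 1) and a minimum of 2-fold 61 (48 and 13), fewer by construction. Leaving out 1 array gave 12 to 281 calls, 12 to 162 of them higher and 0 to 119 lower, with 1 array left in a group, assumed to vary like the others. For the other settings the cause was not tested.

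Against the double deletion, 12 calls became 7 with hybridisation control centring, 5 without trend, 5 with the compared arrays alone, 6 at 0.01 and 4 to 10 without 1 array. Against plus RPL12B, 1 call became 2 with a pseudocount or a floor and 0 to 2 without 1 array. Of 74 called genes named by the rule, 0 changed sign in any fit and 8 stayed called in all of them; 36 stayed called after quantile normalization and 8 to 12 without a plus RPL12A or wild type array. Of 52 list medians, 34 changed sign in some fit.

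With the replicate number as a replicate block, 719 genes were called (406 higher, 313 lower) against wild type and 79 against the double deletion. The numbers were not taken to pair the arrays in the main fit. Arrays numbered 2 did deviate together, at correlations of 0.0498 to 0.795, 0.41 between plus RPL12A and wild type. That shared part stays in the spread of the main fit. Depth is unknown for arrays; of the genes tested, 99.8% to 99.9% exceeded the background on each array, partly through the filter.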

Other observations

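Several other gene groups held no called gene in plus RPL12A against wild type, beside 3.97% of all genes. These were the 30 genes of iron uptake and use (median 0.0017), 9 of copper (-0.021), 27 antioxidant genes (0.17), 38 proteasome genes (0.052), 36 of RNA polymerases I and III (-0.065), 13 regulators of ribosomal protein gene transcription (0.12) and 16 of inositol and phospholipid synthesis (-0.17). With the 25S split as a block, which called 8% of all genes higher and 5.39% lower, 5 proteasome genes were called higher and 1 lower, 4 antioxidant genes higher and 2 lower, 3 iron genes higher and 2 lower, 1 RNA polymerase gene higher and 2 lower, 1 copper gene higher and 1 inositol and phospholipid gene lower, and no regulator of ribosomal protein gene transcription was called. Of 12 methionine cycle genes, SAM4 was called lower and 0 higher, with a median of -0.23. Of 22 genes under nitrogen catabolite repression, DAL5 was called lower. For the genes of the native yeast plasmid, no probe set was annotated.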
